A study of Mus musculus with 3 samples.

Results

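Histones are the proteins around which DNA is wound. The core histones H2A, H2B, H3 and H4 form the nucleosome, and the linker histone H1 binds the DNA where it enters and leaves. Most of their genes are replication-dependent: they lie in clusters, are transcribed when DNA is copied, and their mRNAs end in a stem-loop instead of a poly(A) tail. In the thymus, cycling immature thymocytes are where new histones are needed for T cell production. The levels of 30 histone genes, among 19938 named genes, were examined in thymocytes of 3 wild-type mice. They were all genes with a probe set of their own whose symbol belongs to the H1f, H2ac, H2bc, H3c or H4c series, with 8 genes for H1, 4 for H2A, 9 for H2B, 3 for H3 and 6 for H4. Each of the 30 was read by 1 probe set, a group of short probes that the array sums up as 1 level.

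The mice carried the numbers 92, 103 and 106 and a mixed FVB and C57BL6 background, with genotype wt and no treatment given. The labels do not state their age. In the study, whose title names tPTEN-/- mice, they served as the normal controls for invasive tumours, and no lymphoma array was analysed here. An entry for T cell lymphoma stands under disease state for these 3 samples too, against their titles and genotypes. The labels give an RNA integrity number of 3, which is low, and 0.3 µg of RNA for every sample. All values are log2 levels from Affymetrix mouse gene arrays, and 3 arrays limit the precision of each of them. Thymocyte identity was checked with 7 markers (Cd3e, Cd3g, Cd4, Cd8a, Cd8b1, Rag1 and Ptcra), and 7 of 7 were above background on all 3 arrays, with a median range between mice of 0.12. Whether a lower level reflects fewer cells of a type or less RNA per cell cannot be told apart in such bulk samples.

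The 23 histone genes on chromosome 13 all carried Hist1 names in the older nomenclature, after the large cluster there, and 4 others lie on chromosome 3, 2 on chromosome 6 and 1 on chromosome 15 in the RefSeq table of GRCm38.p6. Upstream sequences were found in RefSeq for 26 of the 30. Those of the 5 genes that differed most between mice by the test described further on, and of an H3 and an H4 gene for comparison, are given here as the 150 bases before the annotated start, 5′ to 3′, in GRCm38.p6. Capitals mark the TATA box letters TATAAA, the CCAAT box, the octamer ATTTGCAT and the H1 box AAACACA, on either strand.
H1f1, chr13:23763518-23763667, plus strand: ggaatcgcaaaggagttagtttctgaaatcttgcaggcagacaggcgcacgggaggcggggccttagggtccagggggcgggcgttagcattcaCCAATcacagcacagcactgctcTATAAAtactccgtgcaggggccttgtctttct
H1f2, chr13:23738657-23738806, plus strand: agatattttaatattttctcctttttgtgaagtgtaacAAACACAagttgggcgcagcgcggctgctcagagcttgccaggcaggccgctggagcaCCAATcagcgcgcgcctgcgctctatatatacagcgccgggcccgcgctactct
H2ac4, chr13:23750938-23751087, plus strand: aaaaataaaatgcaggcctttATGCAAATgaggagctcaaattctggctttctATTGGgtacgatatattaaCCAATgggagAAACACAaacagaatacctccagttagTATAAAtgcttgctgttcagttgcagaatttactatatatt
H2bc3, chr13:23746584-23746733, plus strand: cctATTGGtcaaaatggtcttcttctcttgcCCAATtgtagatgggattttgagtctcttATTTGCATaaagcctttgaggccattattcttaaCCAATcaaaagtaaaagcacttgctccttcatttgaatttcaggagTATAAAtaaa
H2bc8, chr13:23571250-23571399, plus strand: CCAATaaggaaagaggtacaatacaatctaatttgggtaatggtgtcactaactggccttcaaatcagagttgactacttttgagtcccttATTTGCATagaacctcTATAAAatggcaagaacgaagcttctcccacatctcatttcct
H3c4, chr13:23575613-23575762, plus strand: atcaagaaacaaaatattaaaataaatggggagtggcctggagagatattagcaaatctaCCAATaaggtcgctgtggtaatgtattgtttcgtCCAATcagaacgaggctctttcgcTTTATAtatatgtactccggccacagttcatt
H4c4, chr13:23581418-23581567, plus strand: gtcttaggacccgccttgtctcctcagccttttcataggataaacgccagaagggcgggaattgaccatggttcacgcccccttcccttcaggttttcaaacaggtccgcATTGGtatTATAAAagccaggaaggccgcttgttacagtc

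Histone promoters are known for a CCAAT box, a TATA box and, in H2B genes, an octamer bound by the POU factor OCT1. In the 250 bases before the start, CCAAT or its reverse complement was present in 20 of 26 histone genes, against 33.8% of all 32851 promoters in the table. TATAAA was present in 14 of 26, against 12.4%. The octamer was found in 8 of 26, against 1.6%, and all 8 were H2B (5 of 7) or H2A (3 of 4) genes. AAACACA occurred in 8 of 26, against 6.25%, in H1f2, H1f3, H1f5, H1f6, H2ac1, H2ac4, H2bc1 and H2bc14. None of the 4 letter strings contains another. Genes that face each other share bases, since the searched windows of H2bc1 and H2ac1 and of H2ac8 and H2bc8 overlap, so that their motifs are not independent. A match describes these letters only.

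Histone genes were mostly read above background, which was set on each array at the 95th percentile of 1203 olfactory, vomeronasal and trace amine receptor genes (5.91, 6.10 and 6.001 for mice 92, 103 and 106). On all 3 arrays, 24 of the 30 passed, against 61.8% of all named genes. The other 6 passed on no array. Probes differ in affinity, so the height of one gene over another is not a measure of its transcription, and this count is not a test.

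**Figure D1:**
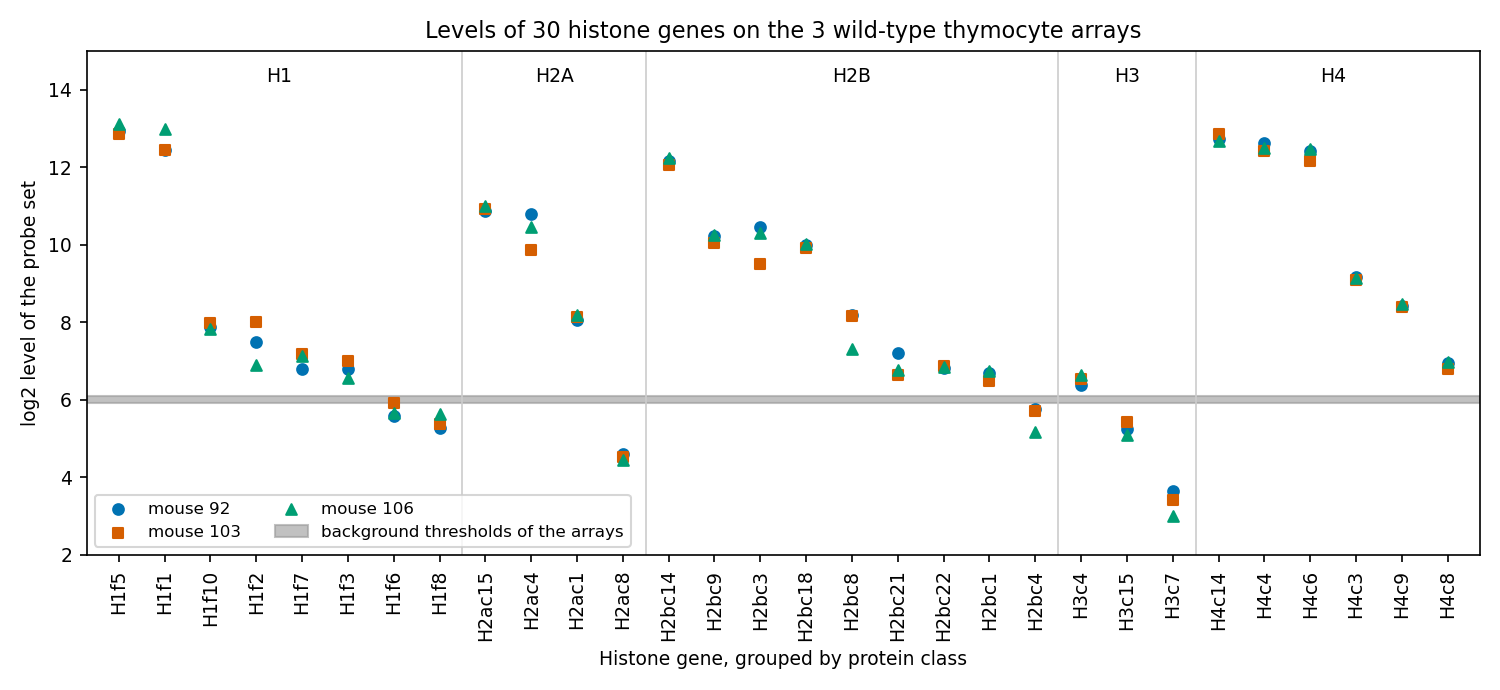
Log2 level of each histone gene (horizontal axis, by protein class and then by mean level) in mice 92 (circles), 103 (squares) and 106 (triangles), with the range of the arrays' background thresholds, 5.91 to 6.10, as a grey band. H1f6, H1f8, H2ac8, H2bc4, H3c15 and H3c7 lie below the threshold of each array, and the 3 mice overlap closely for most genes.

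Among linker histones, which compact chromatin, 6 of 8 genes were above background. The replication-dependent gene H1f5 (formerly Hist1h1b) was at 12.94, 12.86 and 13.11 in mice 92, 103 and 106. H1f1 (Hist1h1a) was at 12.44, 12.43 and 12.98. Mouse 106 was thus the highest for both, by 1.46-fold over the lowest mouse for H1f1 and by 1.19-fold for H1f5. H1f2 (Hist1h1c), a linker histone found in many cell types, was at 7.49, 8.02 and 6.89. H1f3 (Hist1h1d) was at 6.80, 7.01 and 6.55. For both of these, mouse 103 was the highest and mouse 106 the lowest, the opposite end from H1f1 and H1f5. H1f10 (H1fx), a replication-independent linker histone outside the clusters, had a level of 7.89 ± 0.08 (SD, n = 3).

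Of the 3 germ cell linker histones, 1 was above background. H1f6 (Hist1h1t), the testis linker histone, was at 5.57, 5.93 and 5.65, below the threshold of every array. H1f8 (H1foo), the oocyte linker histone, was at 5.28, 5.39 and 5.63, also below. H1f7 (H1fnt), of developing sperm cells, was at 6.79, 7.19 and 7.13 and passed on each array, also with the stricter 99th percentile background described further on. The usual background is passed by 61.8% of named genes, and a pass does not show transcription in thymocytes.

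Of the H2A genes, 3 of 4 passed. H2ac15 (Hist1h2ak) had a level of 10.93 ± 0.07 (SD, n = 3). H2ac4 (Hist1h2ab) was at 10.80, 9.85 and 10.45, so that mouse 103 lay 1.94-fold below mouse 92. H2ac1 (Hist1h2aa), known as a testis H2A gene, was at 8.05, 8.12 and 8.19, and its neighbour and partner H2bc1 (Hist1h2ba), the testis H2B gene, at 6.68, 6.50 and 6.75. Both passed on all arrays. H2ac8 (Hist1h2ae) had a level of 4.52 ± 0.08 (SD, n = 3), below background, although it faces H2bc8, which passed.

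Among H2B genes, 8 of 9 passed. The highest reading was that of H2bc14 (Hist1h2bm), at 12.15 ± 0.09 (SD, n = 3), followed by H2bc9 (Hist1h2bh) at 10.17 ± 0.11 and H2bc3 (Hist1h2bb), which was at 10.45, 9.50 and 10.30 in mice 92, 103 and 106. H2bc18 (Hist2h2bb), in the chromosome 3 cluster, was at 9.97 ± 0.05 (SD, n = 3). H2bc14, H2bc9, H2bc3 and H2bc18 were lowest in mouse 103, although for H2bc18 the order changed to mouse 92 after quantile or cyclic loess normalisation. H2bc8 (Hist1h2bg) was at 8.20, 8.15 and 7.31, so that here mouse 106 was the low one. H2bc21 (Hist2h2be) was at 7.21, 6.63 and 6.76, and H2bc22 (Hist1h2bp) was at 6.81, 6.87 and 6.85, a range of 0.058. H2bc4 (Hist1h2bc) stayed below background at 5.78, 5.72 and 5.18, so that its order between mice cannot be read.

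Only 1 of the 3 H3 genes with a probe set of its own passed. H3c4 (Hist1h3d) was at 6.38, 6.53 and 6.65, within 0.65 of the threshold. H3c15, of the chromosome 3 cluster, was at 5.25, 5.44 and 5.09, and H3c7 (Hist1h3f) at 3.65, 3.41 and 3.01. These low readings are not the level of H3 mRNA as a whole, which the probe sets shared by many H3 genes also read.

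Every H4 gene passed, 6 of 6. All mouse H4 genes encode the same protein, so their probe sets tell gene copies apart and not protein forms. H4c14 (Hist2h4), of the chromosome 3 cluster, was at 12.74 ± 0.09, H4c4 (Hist1h4d) at 12.51 ± 0.10 and H4c6 (Hist1h4f) at 12.34 ± 0.16 (SD, n = 3). H4c3 (Hist1h4c) read 9.13 ± 0.04, H4c9 (Hist1h4i) 8.43 ± 0.04 and H4c8 (Hist1h4h) 6.91 ± 0.09 (SD, n = 3). The largest range between mice in the class was 0.30, for H4c6, and its median range was 0.17.

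A stricter background, the 99th percentile of the receptor genes, left 18 of 30 histone genes and 46.8% of all named genes. H1f3, H2bc1, H2bc21, H2bc22, H3c4 and H4c8, whose mean levels were all under 7, lost their pass.

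Many histone genes are so alike that the array cannot read them apart. Besides the 30 single-gene probe sets, 26 probe sets carry several symbols of which at least 1 is a histone gene of these series, and they name 36 histone genes that have no probe set of their own. These sequences are shared, and 18 of the 30 genes are also named on such a probe set, so that the reading of a member may include RNA of its near-identical copies and is uncertain to that extent. The shared probe sets were above background in 26 of 26 cases on all 3 arrays. The 10 for H3, annotated to 12 genes each, were at 13.80 to 14.22 and differed by at most 0.07 between mice. The highest level of any probe set was 14.85, 14.81 and 14.96 in mice 92, 103 and 106. Whether differences are compressed that near the top was not tested. The 7 for H2B, annotated to 14 or 15 genes, were at 12.57 to 13.35, with 7 of 7 highest in mouse 92 and lowest in mouse 103, by 0.16 to 0.21. Among all named genes, those below background included, 30.8% were highest in mouse 92 and 24.2% lowest in mouse 103. The 7 H2B probe sets name nearly the same genes. The order of the H2B probe sets was the same under quantile, median and cyclic loess normalisation. The 2 for H2A, which also name H3c4, ranged by 0.12 and 0.14, with mouse 103 lowest as deposited and mouse 92 lowest after cyclic loess. Of the 6 for H4, the 5 annotated to 11 genes ranged by at most 0.04 between mice. They too lay near the top of the arrays. The other, annotated to 2 genes, was at 6.98, 6.95 and 6.69 in mice 92, 103 and 106, a range of 0.29. Probe sets of a family overlap in content, 4 of the 26 held values identical to another, and they are not independent readings.

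**Figure D2:**
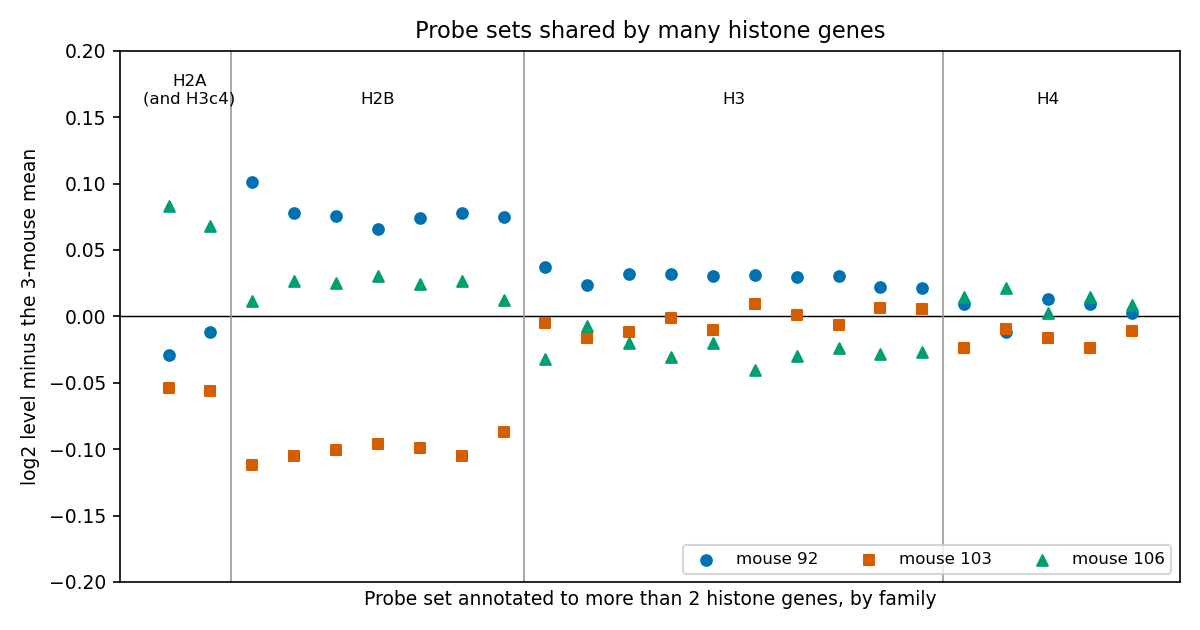
Deviation of each mouse from the 3-mouse mean (vertical axis, log2) for the 24 probe sets annotated to more than 2 genes, in order of family. All 7 H2B probe sets read lowest in mouse 103, and the H3 and H4 probe sets differ little between mice.

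The spread between mice was tested gene by gene with limma, which sets a gene's variance over the 3 mice against that of genes of like level, over 13316 genes above background on at least 1 array. None of the 24 histone genes tested passed at an adjusted p under 0.05 (0 of 24, limma, Benjamini-Hochberg), against 0.225% of all genes tested. At an unadjusted p under 0.05, 5 of 24 passed, against 4.85% of all genes: H1f1, H1f2, H2ac4, H2bc3 and H2bc8. The other priors and normalisations tried also called 0 of the 24, with 3 to 6 at an unadjusted p under 0.05. The share of all genes at that cut was not taken for those settings. The 30 genes called over the whole array had ranges between mice of 1.45 or more, while no histone gene exceeded 1.13. The count of 0 does not show that the mice were alike.

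H1f2 had the widest range, 1.13 or 2.19-fold between mice 103 and 106 (adjusted p = 0.264, limma). It was the 1 histone gene with a range of at least 1, against 0.612% of all named genes. H2ac4 ranged by 0.95 (1.94-fold, adjusted p = 0.335, limma) and H2bc3 by 0.94 (1.92-fold, adjusted p = 0.291, limma). Mouse 103 was the low one in both cases, and these genes are next to each other in the RefSeq gene order, on the same strand. H2bc8 ranged by 0.89 (1.85-fold, adjusted p = 0.351, limma), with mouse 106 low. H1f1 ranged by 0.55 (adjusted p = 0.787, limma), with mouse 106 high. The low mouse of H1f2, H2ac4, H2bc3 and H2bc8 was the same under quantile, median and cyclic loess normalisation. For H1f1 the low one was mouse 103 or mouse 92, which differed by 0.0030 as deposited.

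With 1 mouse left out, some of these genes passed the test over all genes, on the spread of the remaining pair alone. Without mouse 92, which compares mice 103 and 106, 4 histone genes passed, H1f2 (adjusted p = 4.09e-05), H2bc3 (0.00730), H2bc8 (0.00990) and H1f1 (0.0163, all limma), against 0.443% of genes. Without mouse 106, 2 passed, H2ac4 (adjusted p = 0.00648) and H2bc3 (0.00780, limma), against 0.636%. Without mouse 103, 0 passed, against 0.388% of genes. At an unadjusted p under 0.05 (limma) there were 8, 3 and 4 histone genes without mice 92, 103 and 106. The share of all genes at that cut was not taken, so these counts cannot be weighed. Both calls of H2bc3 rest on the same array of mouse 103. A pair of single mice has 1 residual degree of freedom per gene, and these calls concern those animals only.

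**Figure D3:**
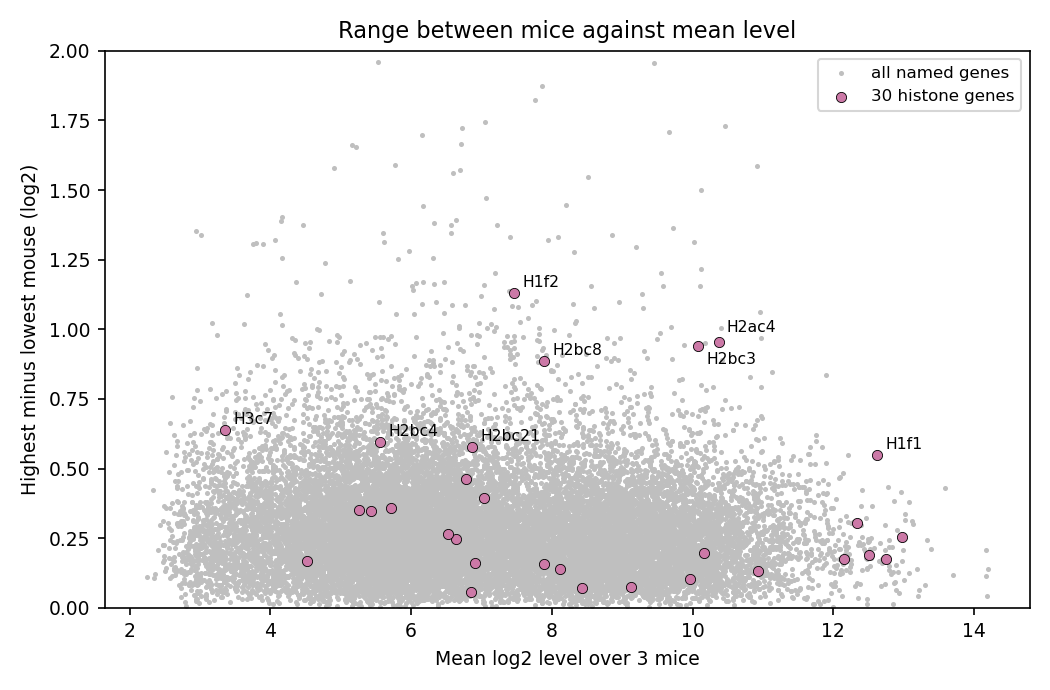
Difference between the highest and lowest mouse (vertical axis, log2) against the mean log2 level (horizontal axis) for the histone genes (filled points) and all named genes (grey); 14 named genes with a range over 2 are not drawn. H1f2 at 1.13, H2ac4 at 0.95, H2bc3 at 0.94 and H2bc8 at 0.89 stand above the other histone genes.

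The median range over all 30 genes was 0.26, and it was also 0.26 over all named genes. By class the median range was 0.38 for H1, 0.15 for H2A, 0.25 for H2B, 0.35 for H3 and 0.17 for H4. The H3 value is the range of H3c15, which lay below background, as did H3c7. The probe sets shared by many H3 genes ranged by at most 0.07, at levels near the top of the arrays. A range of at least 0.5 was seen in 8 of 30, against 10.8% of named genes: the 5 above and H2bc21, H2bc4 and H3c7, of which the last 2 lay below background.

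Seen by mouse, 14 of 30 histone genes were lowest in mouse 103, against 24.2% of all named genes. The count was 10, against 21.4%, after quantile normalisation and 12, against 29.1%, after cyclic loess. Lowest in mouse 106 were 9, against 36.4%, and in mouse 92 there were 7, against 39.4%. These counts include the 6 genes below background, whose order between mice cannot be read. Of those, H2ac8, H2bc4, H3c15 and H3c7 count for mouse 106 and H1f6 and H1f8 for mouse 92. After quantile normalisation 11 were lowest in mouse 92, against 41.8%, more than the 10 of mouse 103. By class, 6 of 9 H2B genes and 5 of 6 H4 genes were lowest in mouse 103, but after quantile normalisation 5 of 9 and 3 of 6. H1 was divided, with 3, 2 and 3 genes lowest in mice 92, 103 and 106, although H1f6 and H1f8 of mouse 92 lay below background. The shift over the whole group was small. The median difference over the 30 genes was 0.051 for mouse 92 minus mouse 103, against -0.059 over all named genes, and it turned to -0.033 after quantile normalisation. For mouse 103 minus mouse 106 it was -0.077, against 0.061, and for mouse 92 minus mouse 106 it was -0.019, against 0.0041.

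**Figure D4:**
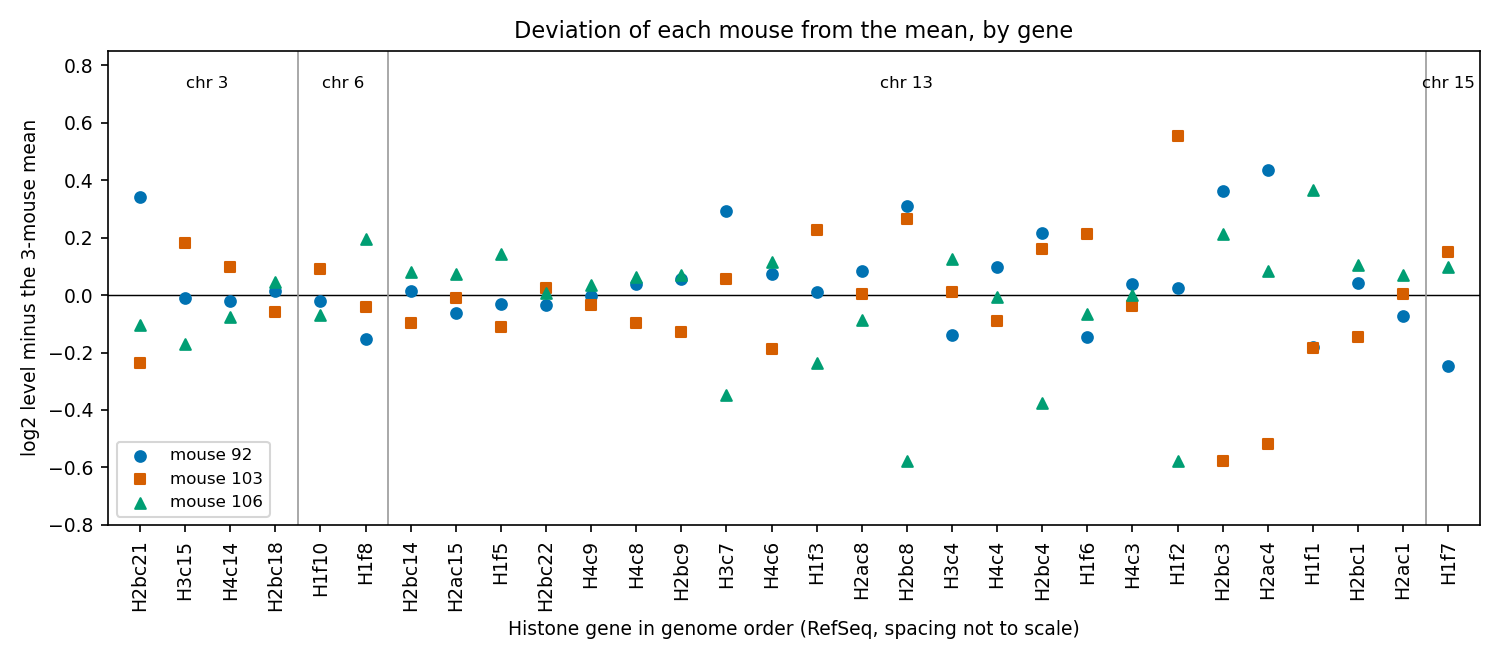
Log2 level of each mouse minus the 3-mouse mean (vertical axis) for the 30 histone genes in genome order (horizontal axis, not to scale), divided by chromosome. H2bc3 and H2ac4 have low squares (mouse 103), and H2bc8 and H1f2 have low triangles (mouse 106), with H1f2 also high in mouse 103.

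Markers of other cells differed between the same mice. On a linear scale, the 8 neutrophil markers summed to 715, 3447 and 2867 in mice 92, 103 and 106, the 6 B cell markers to 844, 1834 and 1414, the 5 erythroid markers to 599, 1654 and 1448 and the 7 macrophage and dendritic cell markers to 2304, 3940 and 2782. Every one of these sums was lowest in mouse 92 and highest in mouse 103. Some of these markers passed the variance test at an adjusted p under 0.05 (limma), against 0.225% of all genes tested. They were 5 of 8 neutrophil markers (Ngp, Lcn2, S100a8, S100a9 and Ltf), 1 of 6 B cell markers (Cr2) and 1 of 4 erythroid markers tested (Alas2). Of the macrophage and dendritic cell markers 0 of 7 passed. The thymocyte markers summed to 51702, 46279 and 48273. Below background were Klf1 in all mice and Mpo, Elane and Cr2 in mouse 92. Their part in the histone differences was not tested.

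Genes that supply and handle histones were read throughout. Of those acting in histone gene transcription and mRNA 3′ end processing, 29 of 29 passed, against the 61.8% given before. Slbp, which binds the stem-loop of histone mRNA, was at 10.16 ± 0.08 and Npat, the co-activator of histone genes at the start of S phase, at 8.83 ± 0.13 (SD, n = 3; named after their values were seen). The highest were Yy1, a transcription factor, at 11.12 ± 0.08, the cap-binding gene Ncbp1 at 11.02 ± 0.14 (SD, n = 3) and Tut7, a uridylyl transferase, at 11.10, 10.96 and 10.94 in mice 92, 103 and 106. Histone chaperones, which escort histones to DNA, also passed in 29 of 29 cases, with Nap1l4 at 11.74 ± 0.14, Anp32e, which removes H2A.Z, at 11.36 ± 0.10 (SD, n = 3) and Rbbp4, which binds histone H4, at 11.02, 11.09 and 10.90.

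DNA replication genes passed in 35 of 35 cases, with the sliding clamp gene Pcna at 12.28 ± 0.16 and the ribonucleotide reductase genes Rrm1 and Rrm2 at 11.20 ± 0.06 and 10.93 ± 0.17 (SD, n = 3). Mouse 106 was the highest for 20 of these 35 genes, against 23.5% of all named genes, and for 13 of the 30 histone genes. After quantile normalisation these counts were 18 and 14, against 24.5%, and after cyclic loess 18 and 15, against 28.8%. At the low end, mouse 92 was the lowest for 19 of the 35 replication genes and 7 of the 30 histone genes, against 39.4% of named genes. Mouse 103 was the lowest for 9 and 14, against 24.2% of named genes, those below background included. After quantile normalisation mouse 92 was the lowest for 23 and 11, against 41.8%, and mouse 103 for 6 and 10, against 21.4%. After cyclic loess these counts were 23 and 9, against 36.6%, and 6 and 12, against 29.1%. The median of mouse 92 minus mouse 103 was -0.036 over the replication genes, against the 0.051 over histone genes given before. This difference was not tested. The median was 0.167 over the chaperones, 0.121 over the transcription and 3′ processing genes, 0.065 over the thymocyte markers and -0.0022 over the replication-independent variants. Mouse 103 was the lowest for 17 of the 29 chaperones and 14 of the 29 transcription and processing genes. The same held for 4 of the 7 thymocyte markers and 3 of the 10 variants. A low mouse 103 was thus not particular to the histone genes. Replication-independent histone variants passed in 8 of 10 cases, against 61.8% of all named genes. The lowest that passed were H2al2a, at 6.82, 6.97 and 7.07 in mice 92, 103 and 106, and Hils1, at 6.38, 6.50 and 6.11. Such a pass does not show transcription in thymocytes. H2az1, for the variant H2A.Z, was at 11.89 ± 0.26, Macroh2a1 at 11.52 ± 0.10 and H2az2 at 10.90 ± 0.10 (SD, n = 3). Macroh2a2, at 5.01, 5.08 and 5.44, and the probe set of H3f3a, for the variant H3.3, at 4.97, 4.67 and 4.64, were below background on each array. The H3f3a reading is that of 1 probe set and does not show that H3.3 mRNA was absent.

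Of these 103 genes, 101 were tested and 0 varied between the mice at an adjusted p under 0.05, with 5 at an unadjusted p under 0.05 (limma), near the 4.85% of all genes: Npm1, Hat1, Mcm5, E2f8 and E2f1. E2f8, an atypical E2F repressor, was at 8.92, 8.63 and 9.42 and passed without mouse 92 (adjusted p = 0.0123, limma), as 0.443% of genes did. Npm1, a nucleolar chaperone, was at 11.23, 10.40 and 10.83 and passed without mouse 106 (adjusted p = 0.0462, limma), as 0.636% did.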

How the data were processed

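Total RNA of thymocytes was extracted with Trizol and labelled with biotin, per the labels' protocols, and read on MoGene 1.0 ST arrays. The authors deposited log2 levels of 35557 probe sets; the log2 scale was inferred from the values (1.76 to 14.96). Affymetrix Expression Console made them, per the submitters' processing notes; how it corrected background or normalised, and in which version, is not given here. The arrays' medians were 6.70, 6.71 and 6.72.

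Probe sets with 1 symbol in the platform annotation (21789) were averaged per gene; 1621 had several symbols and 12147 were not listed. All 30 histone symbols matched the RefSeq table of GRCm38.p6. No build is given for the probes.

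For variation, limma 3.58.1 under R 4.3.3 was used (intercept only, trended prior that is not robust, 10.4 prior degrees of freedom): each variance over its prior gave an upper-tail F ratio, adjusted by Benjamini-Hochberg, threshold 0.05. The script was tested on simulated data. Nothing beyond the mouse numbers describes the samples, so p-values measure only the spread between them, which may be technical.

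The genes named in full were all linker histones, by class the 3 highest and 3 lowest core histones, those below background and the 10 with the largest range. Of the lists of supply genes, the 3 highest, those below background and those past a test were named. Of the marker lists of other cells, those below background and those past the test were named. The members and lists were chosen with earlier results of these data known. Alternatives were other backgrounds, priors, filters, normalisations, probe set rules and each mouse left out.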

Additional observations from a re-analysis of the deposited data

How the results depend on the processing

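The 24 histone genes above background stayed at 24 with any mouse left out, with the highest probe set of each gene and after quantile normalisation. The count became 18 with the 99th percentile background, against 46.8% of all named genes, and 28 with the receptor median plus 1, against 78.6%. The supply genes above background numbered 97 to 101 of 103. The count of varying histone genes was 0 under the 9 other priors, filters, normalisations and probe set rules, and 0 to 4 with 1 mouse left out (4 without mouse 92, 2 without mouse 106); that of the supply genes was 0 and 0 to 1. Over all genes the number called was 30, and 44 with a robust prior and its bulk degrees of freedom. With its per-gene ones it was 0. There 3 histone genes had an unadjusted p under 0.05, and the share of all genes was not taken. The number called was 18 after quantile or cyclic loess normalisation and 58, 51 and 84 without mice 92, 103 and 106. The median difference of mouse 92 minus mouse 103 moved from 0.051 to -0.033 after quantile normalisation and to 0.016 after cyclic loess, and that of mouse 103 minus mouse 106 from -0.077 to -0.045 after quantile normalisation; the cause was not tested. As a check added after seeing the data, the histone genes lowest in mouse 92 numbered 11 in place of 7 after quantile normalisation. No paired analysis was possible because the labels give 1 group. The number of arrays limits every value.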
